A study of Homo sapiens with 34 samples.

Results

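The response shared by 4 gene knockouts was measured in RPE-1, human retinal pigment epithelium cells made immortal with telomerase (hTERT). The members are the 8 libraries, of 34 in the series, whose labels name a TKO gene knockout of FNBP4, HDAC7, DDX5 or DDX17, with 1 hgRNA and n = 2 per gene. They were pooled and set against the 4 libraries of 2 intergenic control hgRNAs (n = 2 per hgRNA), and replicate 1 and replicate 2 libraries were also compared apart. The remaining 22 libraries carry hgRNAs that delete parts of DDX5, DDX17, FNBP4, HDAC7 or HNRNPD. Per the labels, all cells, controls included, received a lentivirus coding for a hybrid guide RNA (hgRNA, in which guides for Cas9 and for Cas12a are linked), EGFP and puromycin resistance at less than 1 virus per cell, were kept in puromycin (20 µg/ml) during 72 h, and were harvested 4 days later at 50 to 70% confluency. In a knockout hgRNA the Cas9 guide comes from the TKOv3 library and points at an exon while its Cas12a partner points between genes. In a control hgRNA both guides point between genes, so controls are cut but lose no gene. Per the labels the transduced cells were selected as a population and no clone is named, so unedited or in-frame alleles can remain, and each knockout rests on a single hgRNA. Duplicates are called biological in the labels, which do not say how the cultures were separated.

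DDX5 and DDX17 are paralogous DEAD-box RNA helicases that act in splicing, transcription and the processing of microRNA precursors. FNBP4 is a formin-binding protein with WW domains that is found with splicing factors, and HDAC7 is a class IIa histone deacetylase that binds MEF2 transcription factors. Nuclear speckles are bodies rich in splicing factors, and detained introns are introns that stay in polyadenylated transcripts held in the nucleus.

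The guides are shown because they define the groups and because a pair of them is identical in the labels. Each is written 5′ to 3′, with the seed in capitals, which is the 10 bases next to the PAM in a Cas9 guide and the first 6 bases in a Cas12a guide.
DDX5 Cas9: aagtctacttGTATCTACGG
DDX17 Cas9: taggtggtcgTTCTCGTTAC
FNBP4 Cas9: gaagtctgggATGAGAACAC
HDAC7 Cas9: gaagtctgggATGAGAACAC
HDAC7 Cas12a: GAAGTCtgggatgagaacac
Control hgRNA 1 Cas9: ctatccagagTAGATCATTA
Control hgRNA 2 Cas9: tccgttagctTCATCCTATC
The DDX5 guide matches chr17:64503471-64503490 on the minus strand of GRCh38, inside exons of 13 annotated DDX5 transcripts, in the coding part of 5 of them, with the PAM TGG. The FNBP4 guide matches exon 5 of FNBP4 at chr11:47751245-47751264, minus strand, with the PAM GGG. In the labels the HDAC7 knockout carries this same FNBP4 guide, given both as its Cas9 and, at 20 bases, as its Cas12a guide, and no guide in its label matches an HDAC7 transcript. The DDX17 guide had no exact match within the transcripts searched, which cannot show a site that spans an exon border. The library labelled HDAC7 knockout is therefore named by its label below.

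Expression was measured as reads across spliced exon-exon junctions, summed per gene and given as CPM, counts per 1e6 such reads after scaling. The 8 knockout libraries held 15080988 to 20233610 junction reads and the 4 controls 16243890 to 18014375. The library names place the controls in a set with the deletions and the knockouts in a set of their own, so set and knockout cannot be told apart. The 4 replicate 1 knockout libraries stood apart from all others: the first principal component of the 12 libraries, with 40.4% of the variance, separated them. They lay at 14.44 to 26.63 on it, replicate 2 knockouts at -10.15 to 0.6805 and controls at -27.61 to -12.54. The replicate 2 knockouts thus also lay beyond every control on this component. Of the retinal pigment epithelium markers 11 of 22 were expressed enough to test. KRT8 and TIMP3 rose among these, by 0.60 and 1.90 log2, also without replicate 1 of the knockouts, while the median of the 11 was -0.16 log2, and with the replicates apart 5 lay above and 5 below the controls in both. TIMP3 did not meet the limits set below for naming the largest increases. RPE65, the retinoid isomerase that defines mature pigment epithelium, was not among the genes tested, and neither were BEST1, TTR and TYR. Markers of immune (3 of 10 tested), endothelial (5 of 8) and epithelial cells (2 of 10) gave no call. Of the neuronal and glial markers (3 of 9 tested) TUBB3, a tubulin, rose by 0.47, with no call without replicate 1, and of the fibroblast markers 3 of 12 tested fell, or 1 without replicate 1.

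Reads that cross an exon-intron border, which come from unspliced RNA, made up 4.17, 5.01, 4.54 and 4.14% of all border and junction reads in the controls. In replicate 1 of the knockouts they made up 2.06% (DDX5), 2.38% (DDX17), 1.91% (FNBP4) and 2.33% (HDAC7). In replicate 2 the same knockouts gave 3.83, 4.48, 3.76 and 3.79%. Replicate 1 knockouts, at 2.17% ± 0.222 (SD, n = 4), lay below every control (two-sided exact permutation test, p = 0.0286, the smallest that 4 against 4 allows), while replicate 2 knockouts, at 3.96% ± 0.345 (SD, n = 4), overlapped the controls (exact permutation p = 0.0857). The pooled calls below, over all genes and in each gene list, are for that reason also counted without the 4 replicate 1 knockout libraries, a comparison chosen after the data were seen, and genes named below whose call ended there are pointed out.

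**Figure D1:**
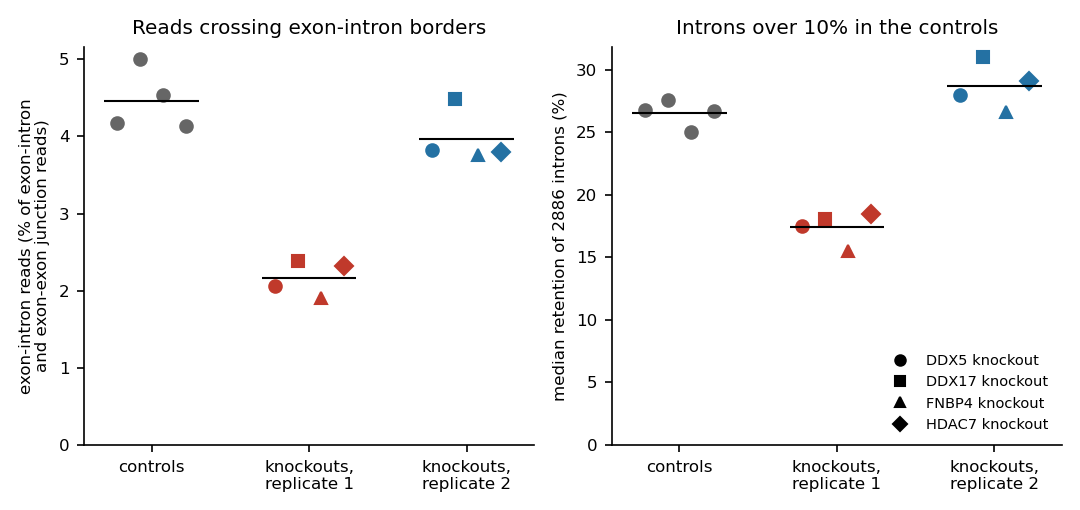
Left, exon-intron reads as a percent of exon-intron and exon-exon junction reads per library, and right, the median retention in percent of the 2886 introns above 10% in the controls. Points are libraries (shapes: knockouts), lines are means of 4, and in both panels the replicate 1 knockouts lie below all 4 controls and all 4 replicate 2 knockouts.

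The targeted genes were read first. DDX5 had 575, 520.0, 528 and 589 CPM in the controls and 134 and 168 CPM in its own knockout, and it fell by 1.88 log2 there (SE 0.18, adjusted p = 8.2e-07, limma). DDX17 had 435, 419, 397 and 415 CPM in the controls and 286 and 330.4 CPM in the DDX17 knockout, a fall of 0.44 log2 (SE 0.09, adjusted p = 0.0121). In the DDX5 knockout DDX17 stood at 640.5 and 635 CPM, above every control, and rose by 0.62 log2 (SE 0.09, adjusted p = 0.000175). The 2 helicases thus moved in opposite directions when DDX5 was targeted.

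FNBP4 did not pass the test in any knockout, its own included: it had 44.6, 34, 38 and 42.6 CPM in the controls and 22.3 and 44.5 CPM in the FNBP4 knockout. All 4 knockouts had low FNBP4 in replicate 1 (22.3 to 30 CPM) and higher FNBP4 in replicate 2 (40.7 to 50.4 CPM), so the ranges of the replicates did not overlap, whichever gene was targeted. HDAC7 had 182 and 179.9 CPM in the library pair labelled HDAC7 knockout against 177 to 243 CPM in the controls, a difference of -0.15 log2 (SE 0.19, adjusted p = 0.688). A frameshift need not lower the RNA, so these levels check the labels of the DDX5 and DDX17 knockouts only. HNRNPD, which no knockout targets, did not pass the test (0.19 log2, adjusted p = 0.158).

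Pooled over the 4 knockouts, 1139 of 12081 genes rose (9.43%) and 1186 fell (9.82%), 2325 in all (19.2%, limma with Benjamini-Hochberg adjusted p under 0.05). The fit takes libraries as independent within their groups. Deviations of the replicates were shared among the knockouts (correlations 0.473 to 0.711), so pooled SE and p-values can be too small. Increases were modest and decreases larger: 19 genes rose and 265 fell by at least 2-fold, and the median difference was 0.38 log2 among higher and -0.65 among lower genes. Leaving out replicate 2 of control hgRNA 1 left 1203 genes, and leaving out replicate 1 of control hgRNA 2 left 1001. With scaling by total junction reads alone the split became 467 higher and 2278 lower, since the median of all genes then moved from -0.02 to -0.15. The groups did not overlap for 676 genes with all 8 knockout libraries above all 4 controls (5.6% of genes tested) and 406 with all below (3.36%).

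Without the 4 replicate 1 knockout libraries 423 genes were higher (3.5%) and 471 lower (3.9%), 894 in all (7.4%). Of the pooled calls 375 higher and 409 lower genes were called here too, in a comparison that shares its controls and replicate 2 knockouts with the pool. Without the 4 replicate 2 knockout libraries 3375 genes were called (27.9%). Single knockouts, which share the control libraries, gave 1228 genes for DDX5 (10.2%), 999 for FNBP4 (8.27%), 806 for HDAC7 (6.67%) and 209 for DDX17 (1.73%). Without replicate 1 these became 185, 247, 87 and 39, with the lone library of each knockout taken to vary like the other groups. Over the genes called higher in the pool the median log2 difference was 0.44 in the DDX5 knockout, 0.28 in DDX17, 0.41 in FNBP4 and 0.40 in HDAC7, and over those called lower it was -0.68, -0.48, -0.69 and -0.67 in the same order. The DDX17 values were thus the smallest in both directions.

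The genes with the largest increases are named here among called genes that averaged 2 or more in log2 CPM and had all 8 knockout libraries beyond the controls. INHBA, the subunit of activin A, had 46.6, 41.9, 43.8 and 53.7 CPM in the controls. In the knockouts INHBA lay between 91.5 and 121 CPM, about level in replicate 1 (106 ± 4.47, SD, n = 4) and replicate 2 (104 ± 13.4), and it rose by 1.17 log2 (SE 0.10, adjusted p = 1.38e-07). Lack of overlap was a condition for naming INHBA, and without replicate 1 of the knockouts its rise was 1.15. NRG1, an EGF-type ligand of ERBB receptors, rose by 1.14 (SE 0.12, adjusted p = 1.27e-06), from 8.71 to 11.2 CPM in the controls to 28.5 and 24.6 CPM in DDX5, 31.5 and 29.4 in FNBP4, 21 and 20.3 in HDAC7, and only 15.9 and 11.7 in DDX17. EDN1, the vasoconstrictor peptide endothelin-1, rose by 1.00 (SE 0.18) with the same spread among knockouts: 41.8 and 31.1 CPM in DDX5, 56.1 and 37.6 in FNBP4, 22.9 and 21.6 in HDAC7, 17.4 and 17.7 in DDX17, against 9.61 to 16.7 in the controls.

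HAS2, which makes hyaluronan at the plasma membrane, rose by 1.09 log2 (SE 0.18), GFRA1, a receptor for glial-derived neurotrophic factors, by 0.95 (SE 0.10), and ADAMTS5, an aggrecan-cleaving protease, by 0.98 (SE 0.12). TUBA4A, an alpha-tubulin, rose by 1.19 (SE 0.16) from 3.52 ± 0.455 CPM (SD, n = 4) to 8.34 ± 1.93 in replicate 1 and 7.79 ± 0.544 in replicate 2. IFFO2, an intermediate-filament family member, had 38.6 to 45.2 CPM in the controls and 65.7 to 121 CPM in the knockouts, a rise of 1.16 (SE 0.07, adjusted p = 2.9e-10). The sodium-calcium exchanger SLC8A1 rose by 0.93 (SE 0.15) with nearly equal values in the 4 knockouts, 0.90, 0.86, 0.99 and 0.99. SLC7A5, the light chain of a carrier of large neutral amino acids, rose by 0.92 (SE 0.10) from 186 to 217 CPM in the controls to 307 to 494 CPM. Without replicate 1 of the knockouts these genes differed by 0.79 to 1.14 log2. The replicate 2 knockouts and the controls took part in the choice of these genes, so those values are not independent of it.

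The 10 genes with the largest decreases under the same limits follow, and several stood lower in replicate 1 than in replicate 2. Here too the values without replicate 1 rest on libraries that were used to choose the genes. Genes at lower levels or with overlapping libraries, such as TNFRSF9, OAS1 and BMF below, can have larger differences. CCL2, a chemokine that draws monocytes, had 34.6, 26.8, 26.4 and 26 CPM in the controls and 6.87 to 15.2 in the knockouts, and it fell by 1.56 log2 (SE 0.16, adjusted p = 1.27e-06). Its fall was as large without replicate 1 (-1.66, adjusted p = 0.000133). ANGPTL2, a secreted angiopoietin-like protein, fell by 1.56 (-1.43 without replicate 1), the integrin ITGA10 by 1.52 (-1.29) and the lipase LIPG by 1.36 (-1.29). COL14A1, a fibril-associated collagen, fell by 1.75 (SE 0.18) from 11.4 ± 0.861 CPM to 2.71 ± 0.657 in replicate 1 and 4.41 ± 1.73 in replicate 2 (SD, n = 4).

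POSTN, the matricellular protein periostin, fell by 1.73 log2 (SE 0.18) from 22 to 25.9 CPM, and lowest in the library pair labelled HDAC7 knockout, at 1.03 and 3.33 CPM against 6.48 to 14.9 CPM in the other knockouts. SNED1, a matrix protein, fell by 1.72, from 26.9 CPM in the controls to 4.95 in replicate 1 and 13.7 in replicate 2, and by 0.98 without replicate 1. MST1, which codes for the ligand of the MST1R receptor, shows how far replicate 1 can carry a pooled value: it had 7.22 to 11.5 CPM in the controls, 0.206 to 0.717 in replicate 1 and 4.94 to 6.71 in replicate 2. Its pooled difference was -2.45 (SE 0.57, adjusted p = 0.00442), and without replicate 1 it was -0.60 (adjusted p = 0.172).

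**Figure D2:**
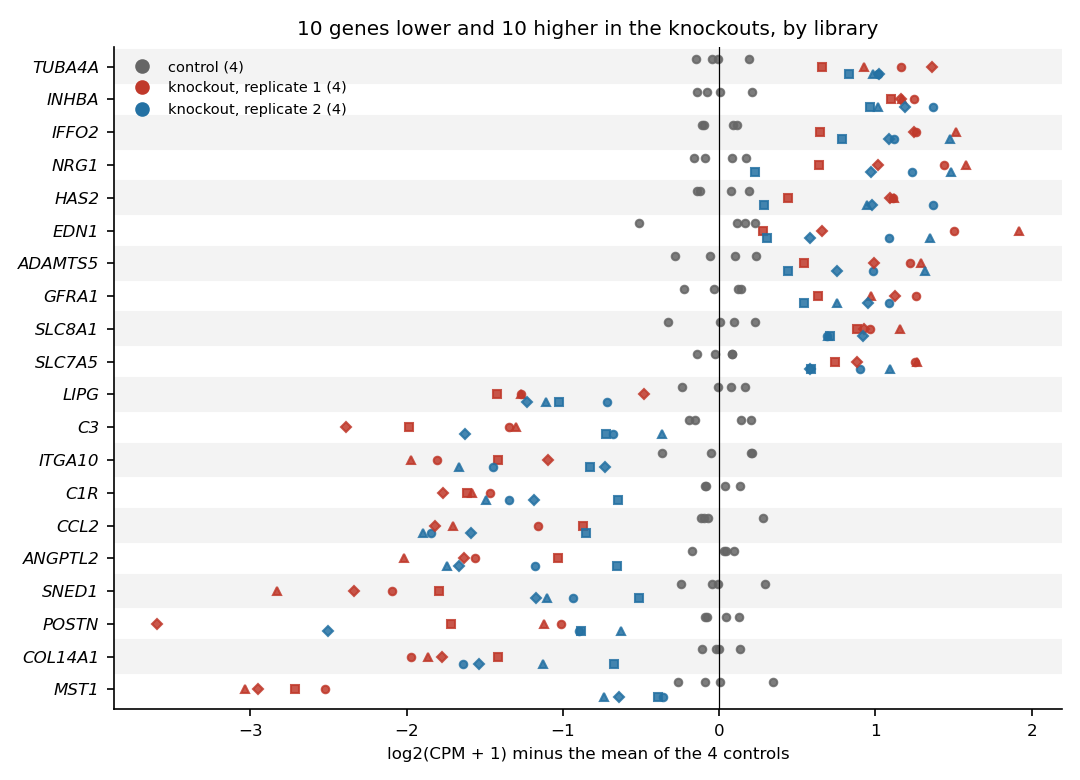
Each row is a gene, the 10 lower and 10 higher genes with the largest pooled difference among called genes that averaged 2 or more in log2 CPM without overlap with the controls, and each point a library (circle: DDX5 or a control, square: DDX17, triangle: FNBP4, diamond: HDAC7), placed by log2(CPM + 1) minus the mean of the 4 controls. INHBA, IFFO2 and CCL2 lie at like values in both replicates, while MST1 and SNED1 lie further from the controls in replicate 1.

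Genes of sterol and fatty acid synthesis, which SREBP factors switch on when sterols are scarce, had many members lower: 14 of 30 tested fell and 2 rose, with a median of -0.32 log2 against -0.02 for all genes. Without replicate 1 of the knockouts 13 fell and none rose, with a median of -0.33 log2. INSIG1, which holds SREBP in the endoplasmic reticulum, had 90.2, 108, 87.0 and 80.9 CPM in the controls. In the knockouts INSIG1 had 28.1 and 27.4 CPM (FNBP4), 48.5 and 38.9 (DDX17), 49.4 and 42.8 (HDAC7) and 48.7 and 57.7 (DDX5), with no overlap. It fell by 1.14 (SE 0.10, adjusted p = 2.77e-07) and by 1.18 without replicate 1. HMGCS1, an early enzyme of cholesterol synthesis, fell by 1.02 (SE 0.10) from 78.3 to 99.0 CPM to 29.9 to 53.8 CPM, lowest in the DDX17 knockout. The desaturases FADS1 and FADS2 fell by 0.78 and 0.85, SCD by 0.57 and IDI1 by 0.84. ACACA, which starts fatty acid synthesis, was among the members that rose, by 0.26, and did not pass without replicate 1. The sign of the list's median was the same under both other scalings (-0.44 by total reads).

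Interferon response and antigen presentation genes gave 19 of 33 tested lower and none higher, with a median of -0.62 log2, and 14 lower and none higher without replicate 1 (median -0.56). Replicate 1 alone and replicate 2 alone, which share no library, both put 30 of the 33 below the controls, against 4404 of all 12081 genes. HLA-B, a class I antigen-presenting chain, had 435, 613, 478 and 460 CPM in the controls and 216.1 to 288 CPM in the knockouts, a fall of 0.93 (SE 0.14, adjusted p = 0.000106). Its partner B2M fell by 0.81 (SE 0.13), from 352 to 214 CPM in replicate 1 and 191 in replicate 2. Reads of HLA-B may be shared with other class I genes, so its own level is uncertain. IRF1 and IRF9, transcription factors of the pathway, fell by 0.62 and 0.60, with no knockout library reaching a control. OAS1, an antiviral RNA sensor, fell by 2.79 (SE 0.53) from a level of 0.317 to 0.892 CPM, where few reads stand behind each value and knockouts, at up to 0.401 CPM, overlap the controls.

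The promoters of these genes are shown because the list moved together. RefSeq promoters on GRCh38.p14, 250 bases before to 50 after each start, were at hand for 27 of the 33 genes, and 18 of these held the letters GAAANNGAAA, the core of the interferon-stimulated response element, on either strand, against 4.38% of 27305 genes. Among members that passed the test 10 of 18 did. Here and for the lists below, genes were listed for a known response, so such shares describe the lists and not the knockouts. Matches are in capitals, overlapping ones run together, and a match describes letters, not a bound site.
BST2 promoter, chr19:17405731-17405780, minus strand: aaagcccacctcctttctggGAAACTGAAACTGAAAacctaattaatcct
DDX60 promoter, chr4:168318811-168318860, minus strand: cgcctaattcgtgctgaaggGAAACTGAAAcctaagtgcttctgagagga
B2M promoter, chr15:44711353-44711402, plus strand: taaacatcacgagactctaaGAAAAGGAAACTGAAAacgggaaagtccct
BST2, an antiviral tether, fell by 1.19 log2 (-1.26 without replicate 1, where it did not pass, adjusted p = 0.131), DDX60, an RNA helicase of antiviral sensing, by 0.57, and B2M as above. For the sterol list the letters TCACNCCAC of a sterol regulatory element were found in 1 of 24 promoters, that of SREBF2, against 1.39% of all genes.

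Of 20 NF-kB targets and cytokines tested 7 fell and none rose (median -0.37), and 5 fell without replicate 1. CCL2 is a member, and TNFRSF9, a costimulatory receptor, fell by 2.09 (SE 0.28) from 0.725 to 1.20 CPM to 0.114 to 0.344 CPM. IL1B, the cytokine interleukin-1 beta, fell by 0.36. Complement genes, part of the innate defence in plasma and tissue, gave 7 of 12 lower and none higher, median -0.67, and 5 lower without replicate 1, median -0.39. C1R, the protease that starts the classical pathway, had 13.6 to 16.1 CPM in the controls and 3.57 to 8.94 CPM in the knockouts, a fall of 1.55 (SE 0.16, adjusted p = 9.53e-07). Its partner C1S fell by 1.26. C3, the central component, fell by 1.38 (SE 0.18) from 25.6 to 34 CPM to 8.45 ± 3.22 in replicate 1 and 16.7 ± 5.73 in replicate 2 (SD, n = 4), so replicate 2 stood nearer to the controls.

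Of 30 integrated stress and amino acid genes tested 13 rose and 2 fell, with a median of 0.27 log2, and without replicate 1 11 rose and none fell (median 0.235). MTHFD2, a mitochondrial folate enzyme, had 109.5, 112, 111 and 120.3 CPM in the controls and 180.3 to 221 CPM in the knockouts, a rise of 0.80 (SE 0.10, adjusted p = 1.13e-05). The carriers SLC7A5, SLC1A4, SLC1A5 and SLC3A2 rose by 0.92, 0.71, 0.67 and 0.40, ASNS, asparagine synthetase, by 0.42 and PHGDH, the first enzyme of serine synthesis, by 0.42. The members that fell were DDIT4, an inhibitor of mTORC1 signalling, by 0.92, and DDIT3, the stress factor CHOP, by 0.56. ATF4, the transcription factor the pathway runs through, did not pass the test (-0.51, adjusted p = 0.0814), nor did TRIB3 (-0.47, adjusted p = 0.28) or CHAC1 (0.14, adjusted p = 0.81), which are common readouts of ATF4. Without replicate 1 PHGDH (0.32), DDIT4 (-0.99) and DDIT3 (-0.26) did not pass.

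Chaperones of the endoplasmic reticulum gave 9 of 24 higher and none lower (median 0.20), with 3 higher without replicate 1 (median 0.24). HSPA5, the chaperone BiP, had 502 to 521 CPM in the controls and 648 to 837 CPM in the knockouts, and it rose by 0.56 (SE 0.06, adjusted p = 8.37e-07) and by 0.52 without replicate 1. XBP1, a transcription factor of the unfolded protein response, rose by 0.57 (SE 0.19), and HYOU1, a chaperone of the lumen, by 0.35. Of the cytosolic and mitochondrial heat shock list 6 of 16 rose and 1 fell, among them the co-chaperone FKBP4 (0.56), HSPD1 (0.41) and HSP90AB1 (0.41), and 2 rose without replicate 1. XBP1 (0.43), PDIA6 (0.14) and HSP90AB1 (0.32) were among those that did not pass there. Under scaling by total reads the medians of all 3 lists stayed above 0, at 0.14 for amino acid, 0.07 for folding and 0.16 for heat shock genes, with 5 folding genes higher and 2 lower and 3 heat shock genes higher and 1 lower.

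Promoters of the folding genes held the letters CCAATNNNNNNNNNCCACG, the endoplasmic reticulum stress element, in 8 of 23, against 0.09% of all genes, and in 5 of the 9 that rose. The matches of 3 of these are in capitals.
HSPA5 promoter, chr9:125241371-125241429, minus strand: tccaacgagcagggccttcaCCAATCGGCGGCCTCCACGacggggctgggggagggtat
XBP1 promoter, chr22:28800583-28800641, minus strand: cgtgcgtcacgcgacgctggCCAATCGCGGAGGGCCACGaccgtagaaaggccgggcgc
PDIA6 promoter, chr2:10812833-10812891, minus strand: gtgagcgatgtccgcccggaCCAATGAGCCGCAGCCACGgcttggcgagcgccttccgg
For the amino acid list the letters TGATGNAA, the core of the amino acid response element, were found in 8 of 22 promoters, against 4.46% of all genes, and in 5 of the 11 with a promoter that passed the test.
SLC1A5 promoter, chr19:46784884-46784931, minus strand: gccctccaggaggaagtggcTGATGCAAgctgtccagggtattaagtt
ASNS promoter, chr7:97872449-97872496, minus strand: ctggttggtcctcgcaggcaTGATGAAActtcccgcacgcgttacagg
The promoters of CHAC1 and ATF3, which did not pass the test, also held these letters.

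Contractile and SRF target genes gave 8 of 27 higher and 1 lower (median 0.21), and 8 higher and none lower without replicate 1. TAGLN, an actin-binding protein of smooth muscle, had 1119, 1203, 1095 and 1149 CPM in the controls and rose by 0.76 (SE 0.10, adjusted p = 2.2e-05) to 2207 CPM in replicate 1 and 1695 in replicate 2. ACTA2, smooth muscle actin, rose by 0.69 (SE 0.08) from 398 to 464 CPM to 498 to 889 CPM, ACTN1 by 0.51 and FHL1 by 0.65. ANKRD1, a target of SRF and YAP, rose by 0.73 in the pool, yet in the DDX17 knockout its 868 and 1002 CPM stood at the level of the controls, 866 to 989 CPM. MYLK, the myosin light chain kinase, was the member that fell, by 0.32, and did not pass without replicate 1. Under scaling by total reads 7 members were higher and 4 lower, with a median of 0.09. The CArG box, the SRF binding motif, was found in 10 of 24 promoters of the list against 1.6% of all genes. Of the 8 members with a promoter that passed the test 3 held it, ACTN1, FHL1 and MYLK, the last of which fell.

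Collagens and extracellular matrix genes differed between replicates. In the pool 15 of 31 fell and 3 rose, with a median of -0.31, but without replicate 1 of the knockouts 4 fell and 4 rose (median -0.09), and the median was -0.53 in replicate 1 alone and -0.11 in replicate 2 alone. COL7A1, the collagen of anchoring fibrils, had 131 to 253 CPM in the controls, 18.8 to 45.1 in replicate 1 and 105 to 185 in replicate 2. Its pooled fall of 1.38 became -0.34 (adjusted p = 0.555) without replicate 1. COL6A1 and COL6A3, chains of collagen VI, went from -0.75 to -0.29 and from -0.65 to -0.15, and neither passed the test without replicate 1. FN1, fibronectin, had 12061 to 15161 CPM in replicate 1, 20023 to 23510.0 in the controls and 25929.6 to 31080.4 in replicate 2. Its pooled difference was -0.19 (adjusted p = 0.57), and without replicate 1 it rose by 0.34 (adjusted p = 0.0435). THBS1, thrombospondin 1, rose in both: 12334 to 13922 CPM in the controls, 20358 to 25502 in replicate 1 and 17570.3 to 20690.4 in replicate 2, a pooled rise of 0.64 (SE 0.08, adjusted p = 7.04e-06).

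Of 27 ribosome biogenesis genes 12 rose and none fell (median 0.26), 6 rose without replicate 1 with the same median of 0.26, and both replicates alone put 21 of them above the controls. Of all 12081 genes 3812 lay above the controls in both replicates alone. DKC1, the pseudouridine synthase of box H/ACA particles, had 79.7 to 87.7 CPM in the controls and 102 to 138 CPM in the knockouts, a rise of 0.51 (SE 0.09, adjusted p = 0.000303). PES1, needed to process the large subunit's RNA, rose by 0.57 (0.49 without replicate 1, where it did not pass), and the nucleolar chaperone NOLC1 by 0.41. Of the 78 ribosomal protein genes 15 rose and none fell (median 0.20), but without replicate 1 only 3 rose and 2 fell (median 0.005). In replicate 1 alone their median was 0.40 with 54 called higher, and in replicate 2 alone it was -0.05 with none called (limma, with 1812 genes of all kinds at an unadjusted p under 0.05). RPS14 rose in both replicates, from 1819 to 2074 CPM to 3792 to 4892 CPM in replicate 1 and 2816 to 3393 in replicate 2, a rise of 0.90 (SE 0.12) and of 0.65 without replicate 1. Under scaling by total reads 5 biogenesis genes were higher and 1 lower (median 0.14), and 9 ribosomal protein genes higher and 2 lower (median 0.08). Ribosomal protein genes have many processed pseudogenes, so their counts are uncertain.

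**Figure D3:**
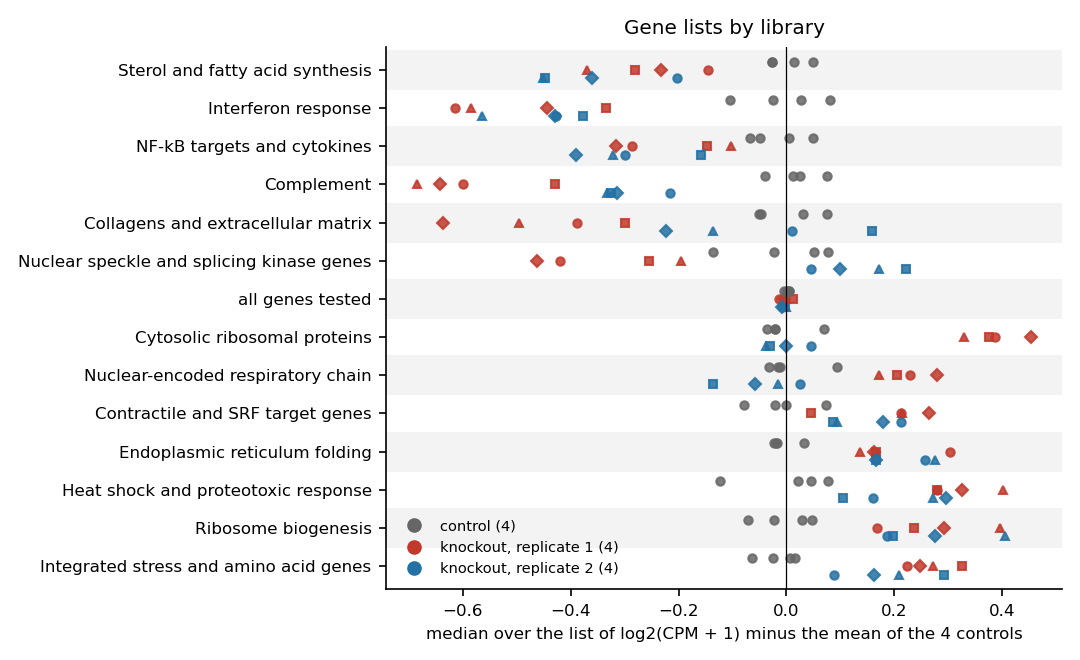
Median over each gene list of log2(CPM + 1) minus the mean of the 4 controls, 1 point per library (circle: DDX5 or a control, square: DDX17, triangle: FNBP4, diamond: HDAC7). Interferon medians lie between -0.614 and -0.335 in all 8 knockout libraries, while ribosomal protein medians lie between 0.33 and 0.454 in replicate 1 and between -0.0371 and 0.0447 in replicate 2.

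Smaller groups held calls in both directions, to be read against the 9.43% of all genes called higher and 9.82% called lower. Of 13 BCL2 family genes (median -0.11), with the same counts without replicate 1, BMF and BCL2L11, which code for BH3-only activators of apoptosis, fell by 1.58 (SE 0.20) and 1.23, and BCL2L1, the survival protein BCL-XL, rose by 0.51. BMF had 14.9 to 30.5 CPM in the controls and 3.44 to 8.23 CPM in the DDX5, FNBP4 and HDAC7 knockouts, but 14.2 and 16.2 CPM in DDX17, which overlaps the controls. NRF2 targets, which answer oxidative stress, gave 7 of 23 lower and 1 higher (8 and 1 without replicate 1), with AKR1C3 and the exporter ABCC3 falling by 1.03 and 0.99 and thioredoxin reductase TXNRD1 rising by 0.43. AKR1C3 shares long stretches with other AKR1C genes, so its count is uncertain. Of 12 plasminogen system genes 4 rose and 2 fell (2 and 1 without replicate 1), with urokinase PLAU down by 0.48. Targets of BMP and TGF-beta gave 5 of 24 higher and 3 lower (5 and 2 without replicate 1; median -0.12), with INHBA and the BMP-binding protein BMPER (0.90) among the higher. In the hypoxia and glycolysis list 4 of 28 rose and 3 fell, or 2 and none without replicate 1, and HK2 and HK1, both hexokinases, rose by 0.61 and 0.46.

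Lists on cell division and RNA processing are set against the 19.2% called over all genes. Replication genes gave 3 of 32 higher and 1 lower (1 and none without replicate 1) and mitosis genes 3 of 26 higher (1 without replicate 1). The knockouts differed here: in DDX5 6 replication and 4 mitosis genes fell and none rose (medians -0.23 and -0.22). In DDX17 3 and 2 rose and none fell (0.22 and 0.21), in HDAC7 3 and 1 (0.19 and 0.17) and in FNBP4 2 and 1 (0.03 and -0.05). Over all genes 4.0% fell in DDX5, and 0.762% rose in DDX17, 3.71% in HDAC7 and 4.57% in FNBP4. The 1 mitosis gene that rose in HDAC7 and in FNBP4 is near that share. Against the deletions 22 replication genes were higher and none lower, and 16 mitosis genes higher and 1 lower. Over all genes 15.7% were higher and 13.3% lower against the deletions. Of p53 targets 3 of 30 passed in each direction (1 higher and 2 lower without replicate 1), and of immediate-early and ERK feedback genes 5 of 22 were higher and 2 lower (4 and 2). DEAD and DEAH box helicases gave 6 of 42 higher and 2 lower, and 1 in each direction without replicate 1. Of hnRNP genes 2 of 22 were higher and 1 lower (none and 1 without replicate 1). Under scaling by total reads the medians of the replication, mitosis, helicase, hnRNP, microRNA, hypoxia, plasminogen and immediate-early lists, above 0 in the other scalings, lay between -0.106 and -0.00159. SR proteins, core activators of splicing, gave 3 of 12 higher, SRSF7 by 0.46, SRSF6 by 0.27 and SRSF1 by 0.22, also 3 without replicate 1 but not SRSF1, and 1 higher and 2 lower under scaling by total reads. Of the list of class IIa histone deacetylases, MEF2 factors and their partners 1 of 16 rose and 2 fell, HDAC3 by 0.30 upward and, among those that fell, HDAC6 by 0.58 (1 in each direction without replicate 1). Of 11 microRNA host transcripts and processing genes tested 3 rose and none fell, also without replicate 1 (medians 0.11 and 0.17). These were DICER1, the exporter XPO5 and DGCR8, by 0.36, 0.35 and 0.20. In the authors' deposited table DICER1 and DGCR8 passed a false discovery rate of 0.05 in no single knockout. XPO5 passed it there in DDX5, FNBP4 and HDAC7. In the single knockouts tested here DICER1 and DGCR8 did not pass either (lowest adjusted p 0.0919 and 0.0566, limma).

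With the replicates apart, the replicate 1 libraries alone (4 knockouts against 2 controls) gave 2431 genes (20.1%), 1160 higher (9.6%) and 1271 lower (10.5%). Replicate 2 libraries alone gave 4 higher (0.0331%) and 14 lower (0.116%), with 1812 at an unadjusted p under 0.05 (limma), and all 18 were called in replicate 1 alone as well. The 4 that rose were INHBA, IFFO2, SLC7A5 and MTHFD2, and among the 14 that fell were INSIG1, HMGCS1, HLA-B, B2M, CCL2 and AKR1C3. INHBA differed by 1.19 log2 in replicate 1 alone and 1.09 in replicate 2 alone, and INSIG1 by -1.05 and -1.21. Of the genes called in replicate 1 alone 88.5% of the higher and 76.2% of the lower had the same sign in replicate 2 alone, against 68% of all genes. Across the 12081 genes, which are not independent replicates, the differences of the replicates had a Pearson r of 0.518 and a Spearman rho of 0.515.

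**Figure D4:**
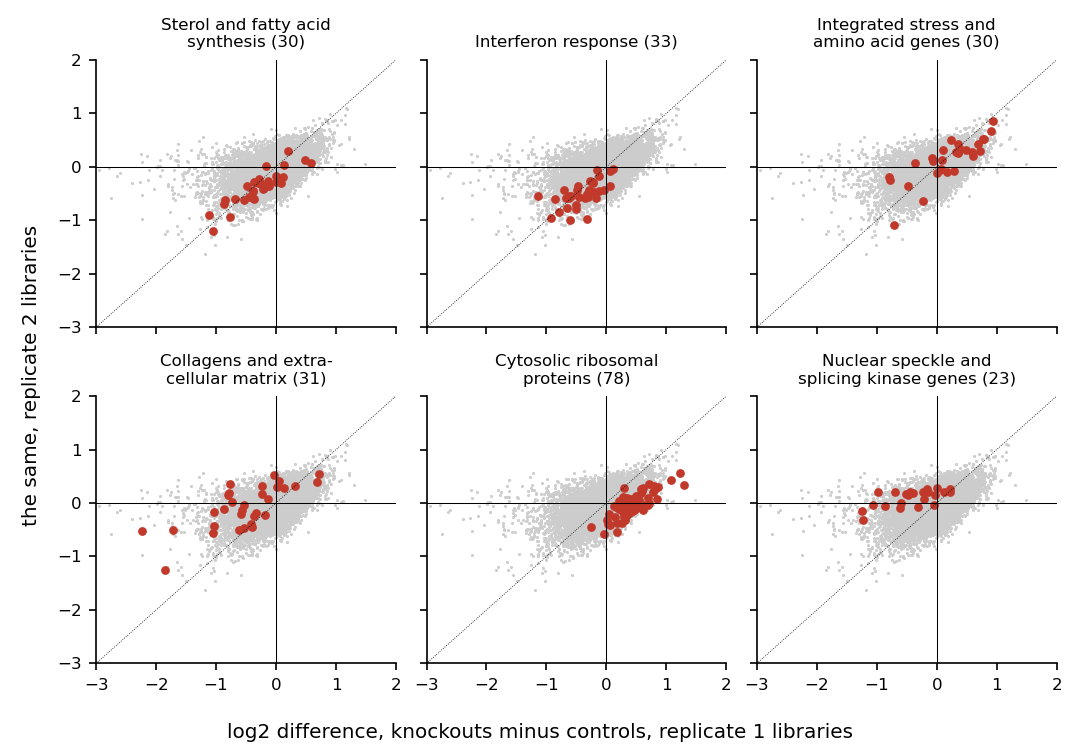
Log2 difference of knockouts minus controls in the replicate 1 libraries (x axis) and in the replicate 2 libraries (y axis), which share no library; grey points are all 12081 genes, 2 of them outside the axes, red points the list named above each panel with its number of genes, and the dotted line marks equal values. Sterol, interferon and amino acid genes lie along the dotted line, while ribosomal protein and speckle genes spread along the x axis.

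A second split used knockouts and controls that share no library. DDX5 and DDX17 knockouts against control hgRNA 1 gave 1 gene (0.00828%, 1781 at an unadjusted p under 0.05, limma), and FNBP4 and HDAC7 knockouts against control hgRNA 2 gave 83 (0.687%), 34 higher and 49 lower. Each of these comparisons holds 2 replicate 1 knockout libraries, so what sets those apart enters both, and like signs between them are not independent of it. Between the 2 control hgRNAs no gene was called (163 at an unadjusted p under 0.05, limma). With 2 libraries each this cannot show that they are alike. The pooled count was 1397 with control hgRNA 1 alone and 660 with control hgRNA 2 alone.

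Replicate 2 minus replicate 1 within the knockouts, a contrast with no control in it, gave 1427 genes higher (11.8%) and 840 lower (6.95%). The same contrast in the controls gave none, with 111 at an unadjusted p under 0.05 (limma), and 335 genes differed between knockouts and controls in this contrast (2.77%). The controls had fewer libraries, so the lack of calls does not show that their replicates were alike. CPT1B, a muscle-type fatty acid carrier of mitochondria, had 10.2 to 13.8 CPM in the controls, 0.00 to 0.756 in replicate 1 and 6.27 to 14.1 in replicate 2, a difference of 4.43 log2 between replicates. PILRB, SEC31B, HSF4 and TNFRSF25 followed with 4.20, 4.17, 4.01 and 3.82, and each was at like levels in replicate 2 and in the controls. In the other direction PTRHD1 fell by 0.87, from 7.57 CPM in replicate 1 to 4.02 in replicate 2, with 4.88 to 9.31 CPM in the controls. All of these genes were named for a large difference between replicates with the same sign in each knockout. That difference was thus a condition and not a result.

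Speckle and splicing kinase genes rose with this contrast: 15 of 23 were higher in replicate 2 and none lower. Their median against the controls was -0.40 in replicate 1 alone and 0.17 in replicate 2 alone. CLK1, a kinase of SR proteins whose own introns are known to be detained, had 22.7 to 33.6 CPM in the controls, 11.3 to 15.1 in replicate 1 and 12.5 to 32.2 in replicate 2, and its pooled fall of 0.80 did not pass the test without replicate 1 (-0.42, adjusted p = 0.0969). LUC7L3, a U1-associated factor, went from -0.71 to -0.09. SRRM2, the scaffold protein of speckles, had 165 to 175 CPM in the controls, 112 to 129.5 in replicate 1 and 176 to 229 in replicate 2. Nonsense-mediated decay factors gave 7 of 16 higher in replicate 2, ribosomal proteins 67 of 78 lower and respiratory chain subunits 20 of 46 lower. Genes with a tested intron retained above 10% in the controls were higher in replicate 2 for 332 of 1704 and lower for 87, while genes whose tested introns were all at or below 2% were higher for 287 of 3393 and lower for 436.

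Intron retention, the percent of transcripts that keep an intron, was tested over 64373 introns. No intron passed in the pooled comparison (limma, with 7341 at an unadjusted p under 0.05). Between replicates of the knockouts 688 introns were higher in replicate 2 (1.07%) and 1 lower (limma). Between replicates of the controls, which had fewer libraries, none passed. The 688 and the 1 lower intron lie in 539 genes. In 625 of the 688 the 4 replicate 1 knockout libraries lay below all 8 others. The choice fixes part of that gap, and its share over all introns was not counted. The median retention of the 688 was 2.39% in replicate 1, 17.7% in replicate 2 and 15.4% in the controls. These introns were chosen by the gap between replicates of the knockouts, so that gap is no further result. The controls had no part in that contrast, but low replicate 1 values favoured the choice. The gap between replicate 1 and the controls is thus not independent of it. Replicate 1 alone gave 238 introns lower (0.356%) and 1 higher against the controls, and replicate 2 alone none (limma).

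Among the introns that differed most, named for that difference, an intron of SNRNP70, the U1 component, at chr19:49101472-49104633, was retained at 43.8 to 64.4% in the controls, 1.59 to 4.15% in replicate 1 and 31.7 to 56.7% in replicate 2. An intron of SRRM2 at chr16:2759662-2760300 stood at 35.4 to 50.5% in the controls, 4.83 to 8.28% in replicate 1 and 37.9 to 59.5% in replicate 2. CENPT, of the kinetochore, at chr16:67830089-67830389, stood at 45 to 53, 1.96 to 7.69 and 50.0 to 57.1%. Introns were named only if all replicate 1 knockout libraries lay below every other library, so that gap was a condition and not a result. In these 3 introns replicate 2 overlapped the controls. ULK1, the kinase that starts autophagy, at chr12:131917555-131918496, was above the controls in replicate 2, at 51.1 to 58.6% against 25.4 to 44.2%. High replicate 2 values favoured the naming of an intron, so this too is not independent of the choice. Coordinates are on GRCh38.

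**Figure D5:**
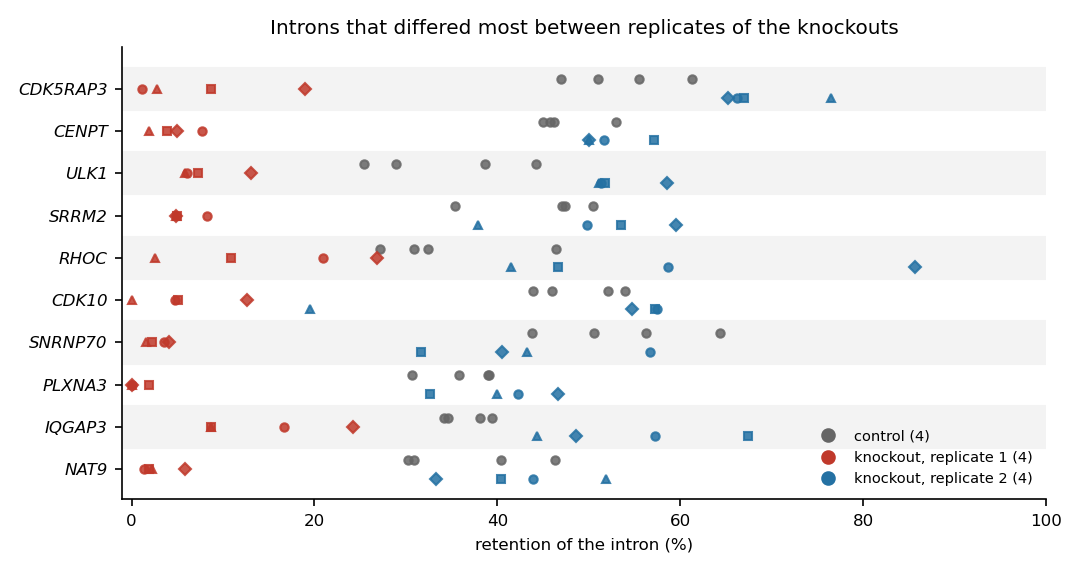
Retention in percent of 10 introns among those with the largest difference between replicates of the knockouts, 1 point per library (circle: DDX5 or a control, square: DDX17, triangle: FNBP4, diamond: HDAC7). Introns were chosen with all replicate 1 knockout points below every other point. Replicate 1 points of SNRNP70, SRRM2 and CENPT lie below 10%, and replicate 2 points lie beside the controls.

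Of 93934 exons and 57675 alternative splice sites 3 sites passed in the pool (0.00347% higher, 0.00173% lower), and none without replicate 1. An alternative acceptor of ATG2B, an autophagy lipid carrier, was used at 0% in all 4 controls and both HDAC7 libraries and at 33.7 and 25% in DDX5, 44.4 and 31.7% in DDX17 and 19.5 and 22.9% in FNBP4 (adjusted p = 0.0153). A pair of alternative donors of CIC, a transcriptional repressor, mirrored each other: the first was used at 45.1, 35.9, 40.2 and 41.0% in the controls, 44.9 and 60.9% in DDX5 and 0% in the other 6 knockout libraries (adjusted p = 0.0253). In neither gene did the 4 knockouts share the change.

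Differences among the 4 knockouts were tested without the controls, and 238 genes passed (1.97%, limma F-test), or 26 without replicate 1 of the knockouts. DDX17 stood furthest from the rest: in pairwise contrasts chosen after the data were seen, DDX5 and DDX17 differed at 204 genes, DDX17 and FNBP4 at 149, DDX17 and HDAC7 at 56, DDX5 and FNBP4 at 37, DDX5 and HDAC7 at 23, and FNBP4 and HDAC7, which share a guide in the labels, at 13 (710 at an unadjusted p under 0.05). IGFBP3, which binds insulin-like growth factors, had 190.0 to 243 CPM in the controls, 662 and 645 in DDX5, 496 and 538 in FNBP4, 309 and 325 in HDAC7, and 214 and 221 in DDX17 (adjusted p of the difference 3.43e-08). MACROD1, a mitochondrial ADP-ribose hydrolase, had 9.33 to 11.5 CPM in the controls, 3.59 and 3.04 in DDX5 and 24.4 and 20.6 in DDX17 (1.74e-08). TNC, the matrix protein tenascin-C, fell by 1.02, 0.99 and 1.23 log2 in DDX5, FNBP4 and HDAC7 and differed by 0.02 in DDX17.

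Against the 22 deletion libraries, which share no library with the knockouts or the controls, 1892 genes were higher in the knockouts (15.7%) and 1606 lower (13.3%), or 721 in all without replicate 1, and deletions against controls gave 27 higher (0.223%) and 125 lower (1.03%). Of the pooled calls against controls 938 of 1139 higher and 771 of 1186 lower genes were called in the same direction against deletions, 2 in each direction were called the opposite way, and these counts rest on the same knockout libraries. In the authors' deposited table, which combines replicates and controls, 797 genes were higher and 605 lower in DDX5, 152 and 184 in DDX17, 776 and 768 in FNBP4 and 474 and 493 in HDAC7 at a false discovery rate under 0.05. INSIG1 stands in the authors' deposited table at log2 fold changes of -0.66, -0.89, -1.55 and -0.70 in that order, and INHBA at 0.88, 0.69, 0.86 and 0.83.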

How the data were processed

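Per the labels' protocols, rRNA-depleted total RNA (300.0 ng, RIN 8.4 to 9.8) was made into stranded libraries with 12 cycles of amplification. Per the file headers the deposited splicing table comes from vast-tools and holds the percent inclusion or retention of 721536 events per library, each with a quality string from which the read counts were taken. The authors' deposited expression table holds RPKM per hgRNA, log2 fold changes and p-values as false discovery rates against the controls, replicates combined. Per the submitters' processing notes Salmon 1.10 and edgeR were used. Aligner and genome build: not given in the sources used here. Another deposited splicing table was not used.

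The design had assumed gene counts or RPKM per library, and in their place spliced-junction reads (whole numbers in 100% of values) were summed per gene. Unlike reads over whole transcripts, such reads miss genes without introns and fall where introns are kept. The table has columns for 2 more libraries, outside the sample list, which were left aside. A gene was tested with at least 15 reads in total and, in at least 2 libraries, what amounts to 10 reads at the median depth. TMM factors were computed in the scripts, and limma 3.58.1 in R 4.3.3 (voom weights) fitted a coefficient per hgRNA group over 34 libraries (17 residual and 5.83 prior degrees of freedom). The pooled value is the mean of 4 knockout groups minus the mean of 2 control groups, called at a Benjamini-Hochberg adjusted p under 0.05. Replicates apart, and the splits without shared libraries, used limma with trend on log2(CPM + 1). Events needed 20 reads in each of 12 libraries and were tested in limma on log2((inclusion + 1)/(exclusion + 1)) of their reads, and called at adjusted p under 0.05 with at least 10 percentage points. All adjusted p-values are limma's unless a permutation test is named. The tests were tested on simulated data.

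Members, the 36 gene lists and the tests were chosen with earlier results of these data known. Named genes are the targeted genes, the 10 higher and 10 lower with the largest pooled difference (called, same sign in each knockout, beyond all controls, mean log2 CPM of at least 2, no clone names), the leading members by p (at most 3) of each list with at least 3 called, up to 5 higher and 5 lower between replicates, and the 4 with the smallest p among knockouts. Other members of the lists are named as examples, and some genes are not reported here. Promoters, 300.0 bases long, and guides were matched to RefSeq (GRCh38.p14) and to GENCODE v29 transcripts. Duplicates may be technical in part, and p-values then measure only the spread between these samples. PCR reads carry no molecular identifiers.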

Additional observations from a re-analysis of the deposited data

Results flagged for a closer look

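In groups of 4 to 10 libraries, a library far from the rest was found in 2 of 56 groups of values, where chance gives about 1 in 20. CCL2 stood at 34.58 CPM in replicate 1 of control hgRNA 1 against 25.99 to 26.8 CPM in the other 3 controls, and every knockout lay below all of these. C1R stood at 8.936 CPM in replicate 2 of the DDX17 knockout against 3.575 to 5.84 CPM in the other 7 knockout libraries, still below every control.

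Several named genes differed among the 4 knockouts in limma's F-test, which does not use the controls. Adjusted p was 5.29e-06 for DDX5 and 1.9e-05 for DDX17, the targeted genes. Among genes that rose in the pool it was 0.00105 for IFFO2, 0.0019 for NRG1, 0.0125 for EDN1, 0.0386 for ADAMTS5, 0.0177 for C6orf48 (a snoRNA host), 0.00162 for ANKRD1, 0.00585 for BMPER, 0.00343 for TXNRD1, 0.00113 for PLAT (tissue plasminogen activator) and 0.00208 for ADAMTS1. Among genes that fell it was 0.0013 for POSTN, 0.00105 for TNC, 0.00832 for FADS1, 0.0213 for INSIG1 and 0.014 for BMF. PLAT, for example, differed by 0.82 in DDX5, 0.35 in FNBP4, 0.23 in HDAC7 and 0.03 in DDX17.

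Among the genes with the smallest p between knockouts, those named here moved in the DDX5 or DDX17 knockout. MACROD1 (1.74e-08) differed by -1.62 in DDX5 and 1.13 in DDX17, and IGFBP3 (3.43e-08) by 1.62, 0.03, 1.28 and 0.57 in DDX5, DDX17, FNBP4 and HDAC7. TXNRD3 (2.75e-06), a thioredoxin reductase, stood at 11.8 and 9.97 CPM in DDX17 against 29.5 to 33 CPM in the controls, a difference of -1.54. The difference between replicates was itself unlike in knockouts and controls for 335 genes.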

How the results depend on the processing

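The pooled count of 2325 genes stayed within 1.5 times under 12 libraries (1744), hgRNAs as units (1701), other scalings (2287, 2745), filters (1955, 2082), trend (2189) and GC and length correction (2934). It became 1397 with control hgRNA 1 alone, 660 with control hgRNA 2 alone, 18 in replicate 2 alone and 894 without replicate 1 of the knockouts; leaving out 1 library gave 1001 to 2618. Without replicate 1, single knockouts gave 185 (DDX5), 39 (DDX17), 247 (FNBP4) and 87 (HDAC7), differences among knockouts 26 and knockouts against deletions 721. Without replicate 2 the pooled count was 3375, DDX17 gave 538 and differences among knockouts 32. The causes were not tested. Of 120 named genes 108 were called, 77 of them also without replicate 1 and 9 also in replicate 2 alone. MACROD1, -0.04 in the pool, was 0.49 without the DDX5 knockout (adjusted p 0.0015).

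The 3 splicing events became 11 with all 34 libraries, 0 with 40 reads, 10 with no limit on points, 0 and 1 with control hgRNA 1 or 2 alone, 254 in replicate 1 alone, 0 in replicate 2 alone, 0, 1 and 1 without the DDX17, FNBP4 or HDAC7 knockout, 0 and 343 without replicate 1 or 2 of the knockouts, and 0 to 4 leaving out 1 library.

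Replicate numbers paired the knockouts with each other (correlations of deviations 0.473 to 0.711) but not the controls (-0.48) or controls with knockouts (-0.292 to 0.274). With a replicate block the pooled count was 2537, 2588 in 12 libraries, differences among knockouts 252, knockouts against deletions 3696, control hgRNAs 0 (201 unadjusted) and splicing events 3. That block gives all groups a common replicate difference, so it does not remove a difference held by the knockouts alone.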
